A study of Hordeum vulgare with 10 samples.

Results

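The miR5048 family in the dry embryo and scutellum of barley (Hordeum vulgare) was followed isomiR by isomiR in aged and in fresh seeds. Its members were all entries of the deposited miRNA table named miR5048 with a number from 1 to 8, which gave 8 isomiRs of 142 miRNAs. IsomiRs are length or end variants of one mature miRNA. The table holds 61 known miRNAs in 13 families and 81 predicted ones, and miR5048 had 394 counts over 9 libraries.

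All seeds were of cv. Damazy, and each group had 3 libraries of small RNA. The Lv seeds (low viability) germinated at 2% and the Hv seeds (high viability) at about 87%, and both came from the same harvest and had been stored from 1972 to 2018 in separate flasks that were sealed at the start. By the study's account, seeds of the flask that lost viability took up moisture during storage. The Rc seeds were the regenerated reference, grown in the field from the Hv seeds shortly before sampling and dried to a low water content. Within a group, all replicates shared their flask or harvest. Between the Lv or Hv seeds and Rc, storage, viability, moisture, flask and harvest thus cannot be told apart. Between Lv and Hv, which shared harvest and storage years, this holds for viability, moisture and flask. The p-values measure only the spread between these libraries. The table lists only miRNAs, and markers of embryo or scutellum were not analysed here.

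Plant miRNAs are cut from hairpin precursors by a Dicer-like enzyme and loaded into an ARGONAUTE protein, which they guide to mRNAs by nearly complete base pairing. The first bases of the miRNA, the seed, weigh most in that pairing, so that a shift of the 5′ end changes the seed while a shortened 3′ end does not. The longest of the lengths seen here is the one known in plants to start production of secondary small RNAs from cleaved targets. A dry seed is close to metabolic rest, and its embryo carries RNA laid down during maturation.

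The sequences of the 5 isomiRs with a sequence in the study's target list are shown because their ends define the groups compared here. They are written 5′ to 3′ with the seed, bases 2 to 8, in capitals.
miR5048.5: uAUUUGCAgguuuuaggucuaa
miR5048.4: uAUUUGCAgguuuuaggucua
miR5048.3: uAUUUGCAgguuuuaggucu
miR5048.2: uAUUUGCAgguuuuagguc
miR5048.8: uUUGCAGGuuuuaggucua
The first 4 shared the same first base and seed and differed only at the 3′ end, so that they formed a ladder of 22, 21, 20 and 19 nt. miR5048.8, also 19 nt long, began 2 bases further in than miR5048.5 and ended 1 base earlier, which gave it another seed. Whether it was made from the same precursor as the ladder was not analysed here. The sequence of miR5048.4 was listed under the name miR5048a.44 and was taken as this isomiR by its length and place in the list.

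All 5 sequences held the 17-nt core UUUGCAGGUUUUAGGUC. None of the 43 known isomiRs of other families with a sequence and none of the 81 predicted miRNAs held this core or either seed. The family was poor in G and C, with 31.8% in miR5048.5 and up to 36.8% in miR5048.2 and miR5048.8, against a median of 52.6% over those 43 isomiRs, of which 1 lay below miR5048.5. miR5048.1, miR5048.6 and miR5048.7 are given by name only, and they held 35 of the 394 counts. The counts carry no coordinates, and the genomic position of the family was not analysed here.

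Sites listed for miR5048.5 show what this sequence can pair with. Of 19 transcript sites in the part of the target list used here, 11 left at most 3 bases unpaired when G-U pairs were allowed. By annotation, 6 of the 11 lay in transcripts of kinases and 3 in transcripts of a resistance protein or of Rpg1, a receptor-like kinase that protects barley against stem rust. The remaining 2 were annotated as a glucanase and a jasmonate-induced protein. Each site is written 5′ to 3′, with the bases left unpaired with miR5048.5 in capitals.
Resistance protein: Auggacuuaaaaccugcaaaug
Serine/threonine protein kinase: uuagaucugaaaccCgcgaaua
Serine/threonine kinase-like protein ABC1040: CuggacuugaaaccAgcaaaua
Stem rust resistance protein Rpg1: uuagaAuuaaaaccuAcaaaAa
The site in the resistance protein transcript left 1 base unpaired, opposite the last base of miR5048.5, and left 0 unpaired with miR5048.2, miR5048.3, miR5048.4 or miR5048.8. The kinase site also left 1 base unpaired with miR5048.5, opposite base 8, the last of the seed. The ABC1040 site, which was also listed for ABC1036, left 2 unpaired, and the Rpg1 site left 3. The same Rpg1 site was listed in 2 Rpg1 transcripts, so the 11 are not all different sequences. These are predicted pairings, and no target RNA was measured here.

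The libraries were shallow for a family of this level. Total counts ran from 3966 to 19542 per library, and known miRNAs took 940 to 4407 of them. The counts of known miRNAs were 1.30 to 1.73 times the reads the study matched to miRNAs in Lv, 1.17 to 2.25 times in Hv and 1.58 to 2.53 times in Rc, and the part of this factor in the levels was not tested. All Lv libraries and Hv replicate 3 came from sequencing run 2, while Hv replicates 1 and 2 and Rc replicates 2 and 3 came from run 1. For Rc replicate 1 both runs had a library, and which of them its counts stem from is not known, so run and group largely cannot be told apart.

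Summed over its isomiRs, miR5048 was the fifth most abundant of the 13 known families. It followed miR159 with 10502 counts, miR166 with 4989, miR156 with 4334 and miR168 with 605, and stood ahead of miR5051 with 135. It ranked 4 in Lv replicate 2 and Hv replicate 1 and 5 in the other 7 libraries.

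The family sum was 18, 46 and 57 counts in Lv, 24, 30 and 75 in Hv and 44, 35 and 65 in Rc. After TMM scaling, which corrects for depth and composition, its level in CPM, the counts scaled to a common total of the table, was 3774, 4422 and 5172 in Lv, 5279, 3060 and 6366 in Hv and 5810, 4641 and 3602 in Rc. The 3 groups overlapped, and Hv held both the lowest and the highest library. The means were 4456 ± 699.6 CPM in Lv, 4902 ± 1685 in Hv and 4684 ± 1105 in Rc (SD, n = 3 each).

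As a share of the counts of known miRNAs, the family took 1.91%, 1.85% and 2.13% in Lv, 2.37%, 1.43% and 1.94% in Hv and 2.40%, 2.01% and 1.47% in Rc. The means were 1.96% ± 0.150 in Lv, 1.91% ± 0.470 in Hv and 1.96% ± 0.464 in Rc (SD, n = 3 each), so that the spread within Hv or Rc exceeded every difference between means. In RPM, the counts scaled to the reads mapped to the genome, the family reached 104, 142 and 146 in Lv, 121, 105 and 174 in Hv and 183, 146 and 148 in Rc. On this scale the Rc libraries were at the upper end, but Lv replicate 3 and Hv replicate 3 lay within the Rc range. In these bulk samples, fewer cells of a type and less RNA per cell cannot be told apart.

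**Figure D1:**
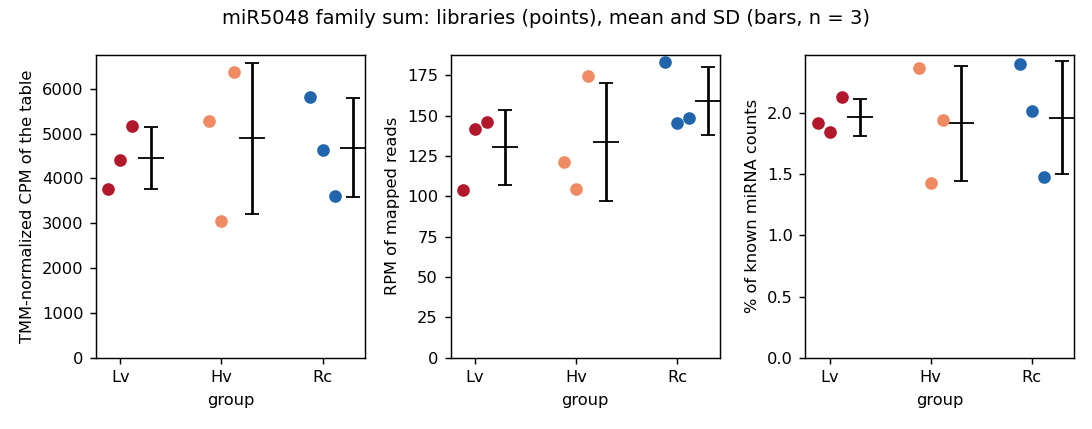
Level of the miR5048 family sum in Lv, Hv and Rc, as TMM-normalized CPM, as RPM of mapped reads and as a percentage of the counts of known miRNAs. Points are libraries and the bars beside them give the mean and SD (n = 3); the groups overlapped on all 3 scales.

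With isomiRs summed per family, the family sum differed by a log2 fold change of -0.00 (SE 0.39, 95% interval -0.88 to 0.88) between stored seeds, the mean of Lv and Hv, and Rc (edgeR quasi-likelihood test, adjusted p = 0.99959). Between Lv and Hv the log2 fold change was -0.14 (SE 0.45, 95% interval -1.15 to 0.88, edgeR adjusted p = 0.986). These unadjusted intervals leave room for a change of up to 0.88 log2 units in either direction between stored seeds and Rc, and for 1.15 units lower or 0.88 higher in Lv than in Hv. In this table edgeR called 0 of 80 miRNAs or families (0.0%) in either comparison, with 11 and 4 below an unadjusted p of 0.05, while DESeq2 called 2 (2.5%) between stored seeds and Rc and 0 between Lv and Hv.

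The groups were also compared within a run where a run held more than 1 of them. In run 1, Hv replicates 1 and 2 had 5279 and 3060 CPM, against 4641 and 3602 CPM in Rc replicates 2 and 3. The Hv libraries of that run thus lay on both sides of the Rc libraries. In run 2, the 3 Lv libraries lay between 3774 and 5172 CPM, below the 6366 CPM of the single Hv library of that run.

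The 22-nt isomiR, miR5048.5, had the highest total, 113 counts, followed by miR5048.2 with 83, miR5048.8 with 82, miR5048.3 with 50 and miR5048.4 with 31. miR5048.1 had 17 counts, miR5048.7 had 16 and miR5048.6 had 2. miR5048.5 exceeded miR5048.2 in 8 of 9 libraries and miR5048.4 in 9 of 9, whereas miR5048.2 exceeded miR5048.8 in 6 of 9. Only miR5048.2, miR5048.3, miR5048.5 and miR5048.8 were counted in all 9 libraries.

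**Figure D2:**
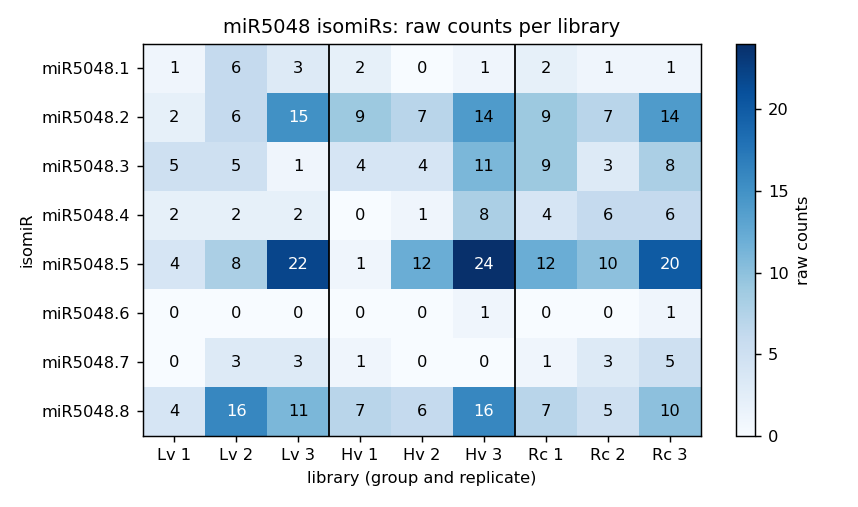
Raw counts of the 8 miR5048 isomiRs (rows) in the 9 libraries (columns, Lv, Hv and Rc), with darker blue for higher counts. miR5048.5 reached 24 counts in Hv replicate 3 and 1 count in Hv replicate 1.

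miR5048.5 had 4, 8 and 22 counts in Lv, 1, 12 and 24 in Hv and 12, 10 and 20 in Rc. It was the most abundant isomiR in 6 libraries, among them all 3 of Rc, while miR5048.3 led in Lv replicate 1, miR5048.8 in Lv replicate 2 and miR5048.2 in Hv replicate 1. Its share of the family counts was 22.2%, 17.4% and 38.6% in Lv, 4.17%, 40% and 32.0% in Hv and 27.3%, 28.6% and 30.8% in Rc. The Rc libraries lay close together, at 28.9% ± 1.77, and within the range of the stored libraries, which averaged 26.1% ± 11.1 in Lv and 25.4% ± 18.8 in Hv (SD, n = 3 each).

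The lowest and the highest of these shares were both in Hv. In Hv replicate 1, miR5048.5 had 1 of 24 counts (exact 95% binomial interval 0.105% to 21.1%), and in Hv replicate 2 it had 12 of 30 (22.7% to 59.4%). These intervals, like all exact intervals here, cover counting error only, since reads of PCR libraries are not independent molecules. Without Hv replicate 1 the Hv mean was 36.0%.

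The ladder of 277 counts left out the 35 counts of isomiRs without a sequence, which could not be placed in it. Within this ladder, the 22-nt form held 40.8%, the 21-nt form 11.2%, the 20-nt form 18.1% and the 19-nt form 29.96%. The counts thus fell at the loss of 1 base and were higher again at 3 bases. Beside this, the longest form held 82.8% of the ladder in miR166, a family acting on HD-ZIP III transcription factors, 84.3% in miR5051 and 59.8% in miR168, which acts on AGO1. These differences between ladders were not tested. The miR168 ladder was built on miR168.10, which was set by hand, while the others were built on the longest sequence of the family. In miR156, which acts on SPL transcription factors, 2016 of 4334 counts belonged to an isomiR without a sequence in the list, so its ladder is incomplete. Among its forms with a sequence, the longest held 3.02% of the ladder and the form 1 base shorter 85.2%. A low share of the longest form was thus not particular to miR5048.

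The 3′-shortened forms made up 69.2%, 61.9% and 45.0% of the ladder in Lv, 92.9%, 50.0% and 57.9% in Hv and 64.7%, 61.5% and 58.3% in Rc. Means were 58.7% ± 12.4 in Lv, 66.9% ± 22.8 in Hv and 61.5% ± 3.19 in Rc (SD, n = 3 each). The groups overlapped, and the Hv mean was 53.9% without replicate 1, in which 13 of 14 ladder counts were shortened. The mean number of bases missing at the 3′ end was 1.23 to 1.43 in Lv, 1.25 to 2.5 in Hv and 1.27 to 1.44 in Rc.

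The 19-nt form of the ladder, miR5048.2, had 2, 6 and 15 counts in Lv, 9, 7 and 14 in Hv and 9, 7 and 14 in Rc. Its raw counts in Hv and Rc were thus the same in each replicate number, and only Lv had libraries below 7. The replicate numbers are not known to pair the libraries, and depth differed between them. In CPM miR5048.2 ran from 433 to 1460 in Lv, 723 to 1972 in Hv and 801 to 1061 in Rc. The 20-nt miR5048.3 had 5, 5 and 1 counts in Lv, 4, 4 and 11 in Hv and 9, 3 and 8 in Rc, with the lowest value in the Lv library that had the most miR5048.5 of its group. The 21-nt miR5048.4 had 2, 2 and 2 counts in Lv, 0, 1 and 8 in Hv and 4, 6 and 6 in Rc. Of the 6 stored libraries, 5 had fewer raw miR5048.4 counts than any Rc library, and Hv replicate 3 had more than all of them. The libraries differ in depth, however, and in CPM the groups overlapped. Its CPM ran from 195 to 433 in Lv, 0 to 629 in Hv and 343 to 791 in Rc. As a share of the family counts, miR5048.4 took 3.51% to 11.1% in Lv, up to 10.7% in Hv and 9.09% to 17.1% in Rc, so that the groups overlapped. Its 0 of 24 counts in Hv replicate 1 allow a share of up to 14.2% (exact 95% interval).

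**Figure D3:**
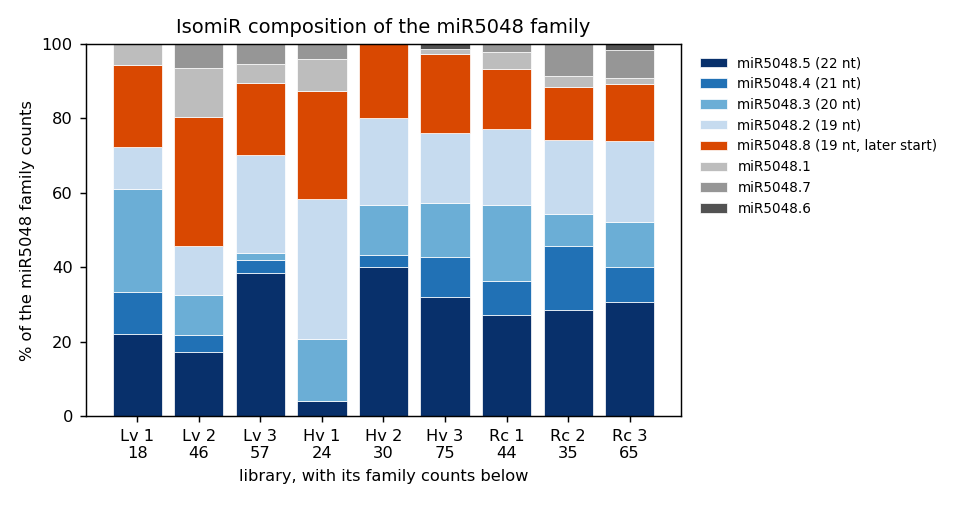
Share of each isomiR in the miR5048 family counts of every library (stacked bars, 100% is the family sum printed under the library). Blue marks the ladder from 22 to 19 nt and orange miR5048.8, which took 14.3% to 15.9% in Rc and 19.3% to 34.8% in the stored libraries.

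miR5048.8, the isomiR with the shifted seed, had 4, 16 and 11 counts in Lv, 7, 6 and 16 in Hv and 7, 5 and 10 in Rc. It took 22.2%, 34.8% and 19.3% of the family counts in Lv, 29.2%, 20% and 21.3% in Hv and 15.9%, 14.3% and 15.4% in Rc. All 6 stored libraries were above all 3 Rc libraries in this share. Means were 25.4% ± 8.23 in Lv, 23.5% ± 4.95 in Hv and 15.2% ± 0.828 in Rc (SD, n = 3 each).

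This share was singled out from those of the 7 better counted isomiRs after the values were seen, and it was not tested. Of 25 known isomiRs with at least 10 counts, from families counted in every library, 2 (8.0%) had a family share that was higher in every stored library than in every Rc library, miR5048.8 and miR159.5, and 1 (4.0%) had a lower one. The exact intervals of single libraries overlapped widely. In Rc replicate 2 the interval was 4.81% to 30.3%, far wider than the spread of the 3 Rc shares. Over pooled counts, miR5048.8 had 60 of 250 in stored seeds (24%, exact 95% interval 18.8% to 29.8%) and 22 of 144 in Rc (15.3%, 9.83% to 22.2%). These pooled intervals leave out the spread between libraries, an SD of 6.16 percentage points over the 6 stored libraries. Within run 1 the shares were 29.2% and 20% in Hv replicates 1 and 2, against 14.3% and 15.4% in Rc replicates 2 and 3.

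In CPM the groups overlapped for miR5048.8, with 865 to 1633 in Lv, 619.7 to 1534 in Hv and 572 to 825 in Rc. edgeR gave stored seeds over Rc a log2 fold change of 0.76 (SE 0.53, 95% interval -0.44 to 1.96, edgeR adjusted p = 0.704), and between Lv and Hv it was 0.09 (SE 0.60, edgeR adjusted p = 1). Neither difference passed the threshold.

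**Figure D4:**
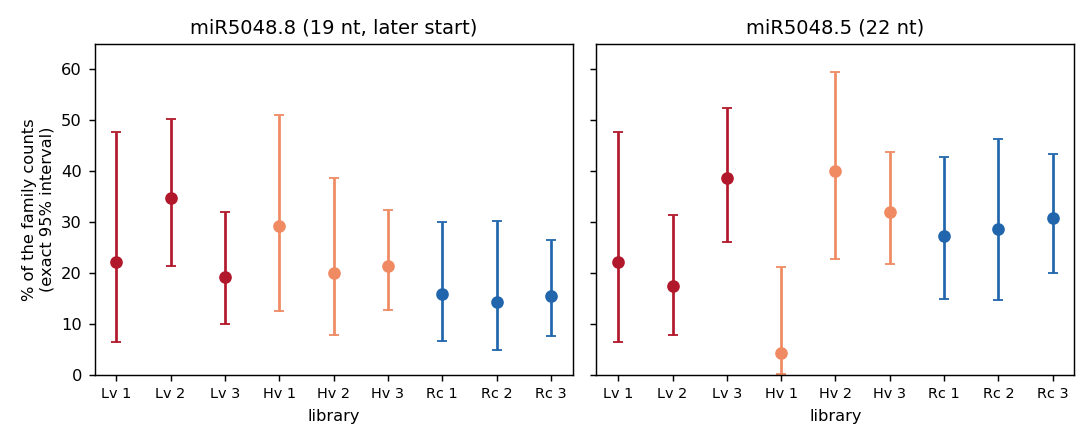
Share of miR5048.8 (left) and of miR5048.5 (right) in the family counts of each library, with exact 95% binomial intervals. The miR5048.8 shares were 19.3% or more in the stored libraries and 15.9% or less in Rc, with overlapping intervals, while miR5048.5 ran from 4.17% to 40% within Hv.

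A form that starts further in took a larger part of miR5048 than of miR166 or miR168. miR5048.8 held 82 of 394 counts (20.8%), with a range of 14.3% to 34.8% over the libraries. In miR166 such forms held 2 of 4989 counts, with at most 0.424% in a library, and in miR168 they held 4 of 605, with at most 2.44%. IsomiRs without a sequence could not be classed, and they held 222 further counts in miR166, 3 in miR168 and 35 in miR5048. They held 2016 of 4334 counts in miR156 and 8722 of 10502 in miR159, so these families were left out. This comparison was chosen after the values were seen and was not tested.

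The isomiRs known by name only were near the limit of counting. miR5048.1 had 1, 6 and 3 counts in Lv, 2, 0 and 1 in Hv and 2, 1 and 1 in Rc, and miR5048.7 had 0, 3 and 3 in Lv, 1, 0 and 0 in Hv and 1, 3 and 5 in Rc. miR5048.6 had 1 count in Hv replicate 3, 1 in Rc replicate 3 and 0 elsewhere. For each of these the groups overlapped.

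Of the 8 isomiRs, 7 reached the 10 counts over the 9 libraries that were required for the test, and edgeR called 0 of these 7 in either comparison, with 0 below an unadjusted p of 0.05. Over the whole table edgeR called 0 of 99 miRNAs (0.0%) in each comparison, with 10 below an unadjusted p of 0.05 between stored seeds and Rc and 5 between Lv and Hv. DESeq2 called 3 of 99 (3.03%) between stored seeds and Rc and 0 between Lv and Hv, none of them from miR5048. The count of 0 members called is thus near the background.

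Between stored seeds and Rc, the log2 fold changes of the ladder were -0.08 for miR5048.5 (SE 0.65), -0.95 for miR5048.4 (SE 0.99), -0.03 for miR5048.3 (SE 0.82) and 0.15 for miR5048.2 (SE 0.59). Those of the isomiRs without a sequence were 0.74 for miR5048.1 (SE 1.17) and -1.24 for miR5048.7 (SE 1.30). None exceeded its standard error in size. miR5048.4 was -1.95 (SE 0.98) without Hv replicate 3, and -3.49 (SE 1.64) in a fit with a run term, which drops Rc replicate 1, with adjusted p = 0.374 and 0.586 in edgeR. miR5048.1 was 0.00 without Hv replicate 1. In this comparison 3 of the 7 were positive, and their median was -0.03, beside -0.19 over all 99 miRNAs tested.

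Between Lv and Hv, the ladder had log2 fold changes of 0.16 for miR5048.5 (SE 0.76), -0.02 for miR5048.4 (SE 1.21), -0.40 for miR5048.3 (SE 0.96) and -0.54 for miR5048.2 (SE 0.69). miR5048.1 had 1.34 (SE 1.33) and miR5048.7 had 1.90 (SE 1.77), with 95% intervals of -1.67 to 4.35 and -2.13 to 5.93. Without Hv replicate 1, miR5048.1 was 2.85 (SE 1.56), and miR5048.7 had 0 counts in Hv, which leaves no fold to give. Without Hv replicate 2 miR5048.1 was 0.73, and without Hv replicate 3 miR5048.7 was 1.21. Here 4 of the 7 were positive, with a median of 0.09 beside -0.01 over all miRNAs tested.

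**Figure D5:**
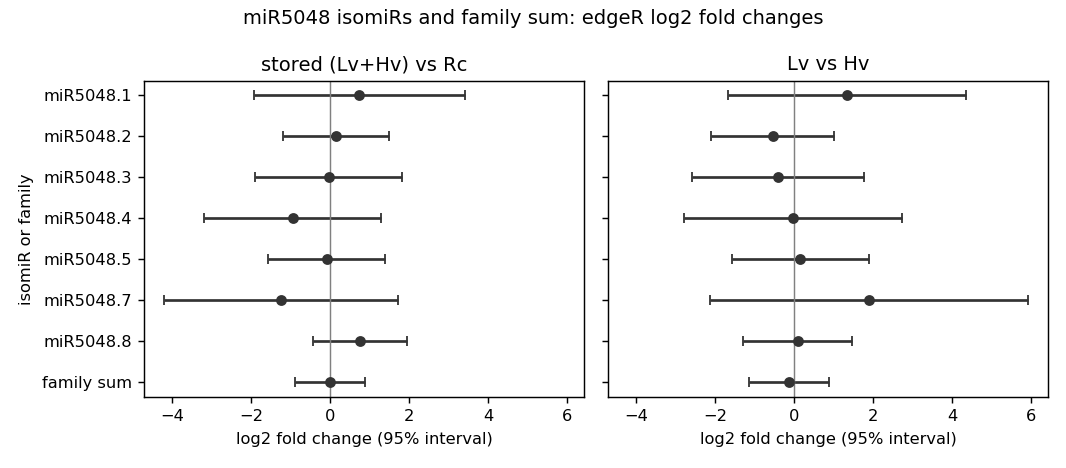
Log2 fold changes of the 7 tested miR5048 isomiRs and of the family sum between stored seeds and Rc (left) and between Lv and Hv (right), from edgeR, with 95% intervals as bars. Every interval includes 0, and those of the family sum, -0.88 to 0.88 and -1.15 to 0.88, are the narrowest.

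The counts of miR5048 were spread more evenly over isomiRs than those of 3 other families. The most abundant isomiR of a library held 33.0% ± 4.87 of the miR5048 counts (SD, n = 9), with a range of 27.3% to 40%. It held 50.2% ± 2.79 in miR156, 79.4% ± 1.68 in miR166 and 57.4% ± 9.43 in miR168. The share was lower in miR5048 in 9 of 9 libraries against each family, with mean differences of -17.2 percentage points to miR156, -46.4 to miR166 and -24.3 to miR168 (exact paired permutation test, two-sided, p = 0.00391 each, adjusted over the 3 comparisons 0.00391, the smallest p that 9 libraries allow). miR159, the family with the most counts, was not included in this comparison. The families differ in depth and in the number of isomiRs listed, and the part of either in this difference was not tested.

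Across the 9 libraries, the family sums nearest to miR5048 were those of miR159, miR166 and miR156, of 8 families compared. Their centred log2 CPM differed from that of miR5048 by a root mean square of 0.27 for miR159, 0.28 for miR166 and 0.34 for miR156. These 3 families also had the highest counts and thus the least counting error. Of other families known mainly from grasses (miR444, miR5049, miR5051, miR6200 and miR6201), 15 isomiRs were listed, 4 were tested and edgeR called 0 higher and 0 lower in either comparison, with 0 below an unadjusted p of 0.05. Their median log2 fold change was -0.44 between stored seeds and Rc and -0.07 between Lv and Hv.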

How the data were processed

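The authors removed adapters, reads below Q30 and reads outside 17 to 25 nt, filtered tRNA and rRNA, mapped the rest to the barley genome of Ensembl Plants release 40 and counted known miRNAs of miRBase 22.1 with miRProf without mismatches. They deposited raw counts per miRNA and library, which were used here. The normalized values (a score), fold changes, log2 fold changes, dispersions and p-values deposited beside them come from the authors' DESeq2 run and were not used.

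From the counts, quasi-likelihood tests were made in edgeR 4.0.16 (R 4.3.3) after TMM scaling. A miRNA needed 10 counts summed over the 9 libraries, and p-values were adjusted by Benjamini-Hochberg over the whole table (threshold 0.05). The test was made once per miRNA and once with isomiRs summed per family. All 3 groups shared the fit. RPM used the mapped reads given by the study. Intervals of shares are Clopper-Pearson intervals at 95%. The exact paired test used scipy 1.17.1. The script was tested on simulated data. Alternatives were DESeq2 1.42.0, RLE factors, mapped reads as library size, no filter, known miRNAs only, a replicate block, run as a covariate and leaving out each library. Sequences were read from the study's target list, and pairing was recounted from the letters.

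The text names all 8 isomiRs, miR156, miR166 and miR168, the 3 families most like miR5048 and up to 6 target sites with at most 3 unpaired bases. The members, lists and tests were chosen with earlier results of these data known; miR159.5 and the forms with a later start were named after their values were seen.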

Additional observations from a re-analysis of the deposited data

How the results depend on the processing

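No miR5048 isomiR was called in either comparison under any of the 16 alternatives. Over all miRNAs, calls between stored seeds and Rc numbered 2 without the filter on low counts, 3 with DESeq2 and 0 to 1 when each library was left out, and those between Lv and Hv 0 to 1 when each was left out. Of 386 values under alternatives, 342 were rated the same and 38 turned sign, all of the latter uncalled log2 fold changes. For fold changes and differences in the largest share, the rating meant a kept direction and side of the threshold. For numbers of calls it meant no change, and for group shares a move of less than 1 SD. With 3 libraries per group, leaving out 1 cannot move a mean share that far, so those ratings were fixed in advance. Between stored seeds and Rc, the family sum was 0.089 with RLE, 0.11 with DESeq2, -0.27 with mapped reads and -0.34 with run as a covariate, a fit that drops Rc replicate 1 (-0.12 to 0.23 leaving out each library), miR5048.2 -0.22 with mapped reads (-0.18 to 0.29), and miR5048.3 0.018 with RLE and 0.21 with run as a covariate (-0.43 to 0.53). miR5048.5 ran from -0.43 to 0.14. miR5048.7 was 0.26 with run as a covariate, but that fit gave no standard error for it. This value is thus not a usable estimate. miR5048.1 ran from 0.00 to 1.30 and was 2.05 with run as a covariate, and miR5048.4 ran from -1.95 to -0.55 and was -3.49 with it. Between Lv and Hv, the family sum was 0.054 with known miRNAs only and -0.61 with run as a covariate (-0.38 to 0.10), and miR5048.4 was 0.17 with RLE, 0.073 without the filter and 0.052 with DESeq2 (-0.47 to 1.86). miR5048.3 ran from -1.21 to 0.13, miR5048.1 from 0.73 to 2.85, miR5048.5 was -0.56 with run as a covariate (-0.45 to 0.74), and miR5048.8 was -0.073 with it (-0.20 to 0.34). The fold change of miR5048.8 between stored seeds and Rc stayed between 0.41 and 0.91, with adjusted p from 0.269 to 1.00 over its alternatives. The cause of these shifts was not tested. With a replicate block the family sum was -0.02 between stored seeds and Rc and -0.10 between Lv and Hv, miR5048.3 was 0.020 between stored seeds and Rc, miR5048.4 was 0.26 between Lv and Hv, and no call changed. No clear pairing by replicate number was seen, as deviations of same-numbered libraries correlated between -0.249 and 0.232, with 1 of 9 pairs above 0.1. Deviations from means of 3 libraries cannot exclude a pairing, however. With 18 to 75 family counts per library, single isomiRs rest on few counts. Their 95% intervals, from -0.44 to 1.96 for miR5048.8 between stored seeds and Rc to -2.13 to 5.93 for miR5048.7 between Lv and Hv, also leave room for changes well above 1 log2 unit.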
